A study of Neurospora crassa with 112 samples.

Results

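The 200 genes described here were the most evenly expressed genes of Neurospora crassa across a panel of strains that the labels describe as wild isolates from Louisiana. They were chosen from a table of RPKM values (reads per kilobase of gene, scaled to a fixed number of mapped reads) for 9733 genes. A gene could enter if its mean was at least 50 RPKM and no library was at 0, which 2473 genes met, and the 200 of these with the lowest standard deviation (SD) of log2(RPKM + 1) over the libraries were taken. The spread and the level of these genes are therefore the values that chose them, and both are given below as a description, with no test.

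Each strain was grown for 16 hours as mycelium on cellophane laid on Bird's minimal medium, and polyadenylated RNA was sequenced once per strain, to genotype the strains and measure their transcripts. The table held 112 columns, of which 4 pairs shared 87.1 to 89.5% of their values exactly and were averaged. Of the libraries that remained, 72 came from strains whose names begin with JW, each a single conidial isolate of wild material, and 36 from strains with a D or FGSC (Fungal Genetics Stock Center) number, among them the laboratory wild type FGSC 2489. No treatment was applied. With 1 library for each strain, strain, culture and library cannot be told apart in any value below.

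Genes that every cell needs at a steady rate are often called housekeeping genes, and a few of them, such as those for actin, tubulin or ubiquitin, serve as internal standards when other transcripts are measured. Many encode subunits of large assemblies, such as the proteasome, which degrades ubiquitin-tagged proteins, the vacuolar ATPase, which acidifies the vacuole, and the mitochondrial complexes of respiration. In a growing hypha, microtubules and actin carry vesicles and nuclei toward the tip, so the genes of the cytoskeleton are also in constant use.

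The libraries held 4174767 to 30748165 reads on genes, with medians of 19835136 in JW and 11861308 in D or FGSC libraries, as recovered from the steps between RPKM values. Among genes listed beforehand as markers of the labelled tissue, act, the actin gene, had a median of 2010 RPKM, and so, a gene needed for hyphal fusion, had a median of 18.9 RPKM. Actin is also a usual internal standard, so the level of act does not tell hyphae from other cells. Markers of conidia, the asexual spores, were present and uneven. In bulk RNA fewer spores and less RNA per spore cannot be told apart, nor can the cells that these transcripts came from. Their summed level (con-6, con-10 and eas) was 74.0, 2320 and 21215 RPKM at its lowest, median and highest in JW libraries, and 179, 4518 and 121989 RPKM in D or FGSC libraries. Most of it was eas, with a median of 2753 RPKM over all libraries, against 180 RPKM for con-6 and 13.1 RPKM for con-10. The median absolute correlation of a gene with that sum was 0.13 over the 200 genes and 0.17 over the other 2273. In the 200 genes 5 libraries stood apart: JW234, JW262, JW160, JW252 and FGSC 2489 held the lowest value of 90 and the highest of 37 of them. Of those 37, JW252 held 19 and FGSC 2489 held 15, while FGSC 4489, not among the 5, held the highest of 13 genes. These libraries also deviated in the other 2273 genes. Their median absolute deviation from the gene means was 0.196 to 0.209 on the log2 scale in the 200 and 0.367 to 0.433 in the others.

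The 200 genes had SDs of 0.126 to 0.191 on the log2 scale, with a median of 0.175, against a median of 0.329 for the other 2273 genes. Without the 5 libraries named above these medians were 0.166 and 0.311. In linear terms the highest library exceeded the lowest by 1.48 to 2.66 times, with a median of 1.97. All 200 stayed under a ratio of 3, as did 682 of the others, and 54% stayed under a ratio of 2, as did 1.67% of the others. The coefficient of variation of RPKM had a median of 12.2% among the 200 genes and 23.2% among the others. The cut fell in a dense part of the distribution. The last genes inside it were NCU02438, NCU05513 and NCU07734, with SDs of 0.1908, 0.1909 and 0.1910, and the first outside it were NCU00571, NCU02076 and NCU01146, with 0.1911, 0.1914 and 0.1916.

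The spread expected from read counting was small beside the observed one. Every one of the 200 genes had at least 89 reads in every library, and the SD expected from counting alone had a median of 0.027 on the log2 scale, or 2.48% of the observed variance, with a maximum of 17.4%. The 200 genes were spread over the range of levels, with mean values of 50.2 to 6501 RPKM and a median of 165 RPKM, against 126 RPKM for the other genes. With the 2473 genes ordered from low to high level and cut into 4 equal groups, 43, 35, 64 and 58 were among the 200. The median coding length was 1155 bases among the 200 genes and 975 bases among the others.

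**Figure D1:**
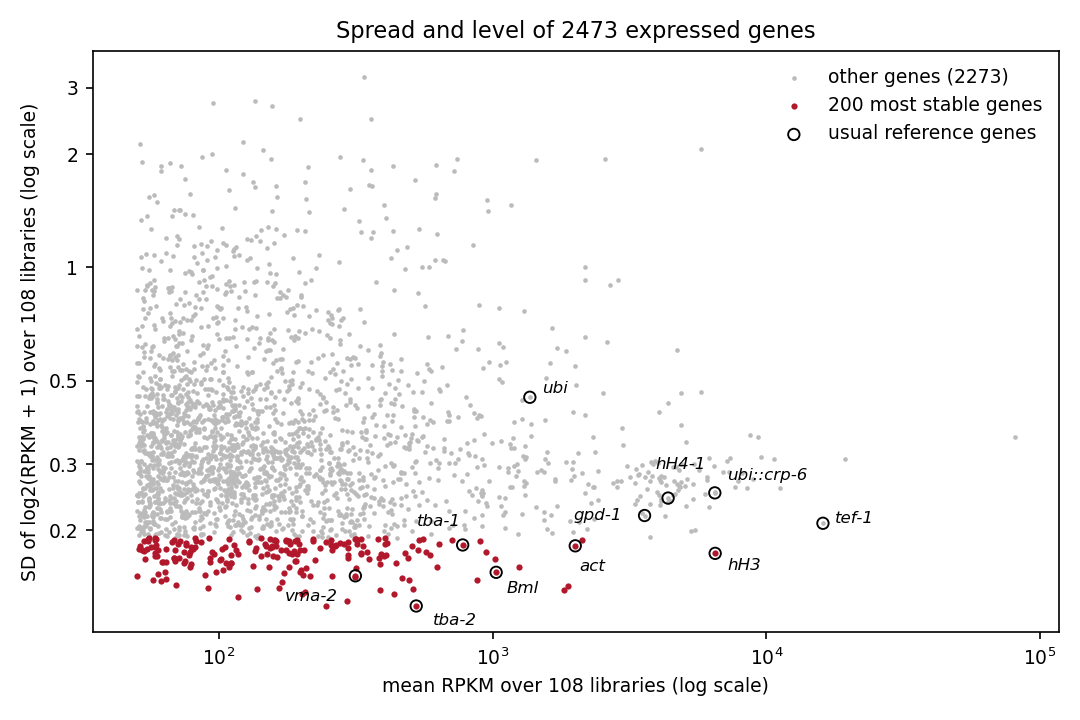
Spread of expression against level for the 2473 genes that met the level rule (50 RPKM or more on average, no library at 0). Each point is 1 gene, with its mean RPKM over all libraries (x axis, log scale) and its SD of log2(RPKM + 1) (y axis, log scale). The 200 genes of lowest SD, in red, lie under 0.191 at all levels up to 6501 RPKM, and of 11 usual reference genes, circled, 6 are among them.

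The gene of lowest spread was tba-2, which encodes an alpha-tubulin. Its level was 431, 527 and 632 RPKM at its lowest, median and highest in JW libraries, and 427, 521 and 616 RPKM in D or FGSC libraries. The ranges of the strain series thus covered almost the same interval, and the highest library exceeded the lowest by 1.48 times. Both of the other tubulin genes were also among the 200. Bml, the beta-tubulin gene in which benomyl resistance maps, had 755, 1013 and 1299 RPKM in JW libraries and 769, 1091 and 1233 RPKM in D or FGSC libraries. The second alpha-tubulin gene, tba-1, ranged from 517 to 1090 RPKM in JW libraries and from 625 to 958 RPKM in D or FGSC libraries. The highest values of both, 1299 and 1090 RPKM, were those of JW168, a strain that the study left out of its tree as possibly misclassified. Without JW168, 194 of the 200 genes were chosen again. The levels of Bml and tba-1 moved together across all libraries (r = 0.64), whereas tba-2 followed Bml (r = 0.28) and tba-1 (r = 0.26) less closely. The median of these 3 values, 0.28, was 0.51 to 0.58 under the other scalings of the libraries.

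Actin fibres were represented by act and arp-3, a subunit of the Arp2/3 complex that branches actin filaments. act had 1586, 2010 and 2406 RPKM in JW libraries. In D or FGSC libraries it had 1022, 2014 and 2557 RPKM, and the low end was set by the laboratory strain FGSC 2489. Without that library the lowest value was 1388 RPKM, and act stood 43rd in order of SD in place of 135th. The transport genes ro-4, which encodes the actin-related protein of dynactin, and ro-6, named for the ropy hyphae of its mutants, were among the less expressed of the 200, with means of 58.2 and 50.2 RPKM. ro-4 was at 106 RPKM in FGSC 2489 and at no more than 76.4 RPKM in any other library.

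Of 11 genes that are commonly used as standards or encode the same products, 6 were among the 200: tba-2, vma-2, Bml, act, tba-1 and hH3, the histone H3 gene. hH3 was the most abundant transcript of the 200, at 4791, 6516 and 8732 RPKM in JW libraries and 3770, 6522 and 8378 RPKM in D or FGSC libraries, the lowest of which was again FGSC 2489. The other 5 lay outside. tef-1, the gene of translation elongation factor 1-alpha, had an SD of 0.21 and ranked 336th. gpd-1, for the glycolytic enzyme glyceraldehyde-3-phosphate dehydrogenase, had 0.22 and ranked 411th. hH4-1, a histone H4 gene, had 0.24, and ubi::crp-6, a fusion of ubiquitin with a ribosomal protein, had 0.25. The polyubiquitin gene ubi ranked 1873rd of 2473, with an SD of 0.45 and a range of 614 to 4156 RPKM. The standing of the abundant genes depended on the scaling: after quantile normalization tef-1 ranked 1417th and ubi::crp-6 89th. Under each of the other scalings act, hH3 and tba-1 fell outside the first 200, and Bml did so under quantile normalization alone. Of the 11 standards 3 were chosen under each of the other scalings. tba-2, vma-2 and cka were within the first 51 under each of the 4 scalings computed.

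**Figure D2:**
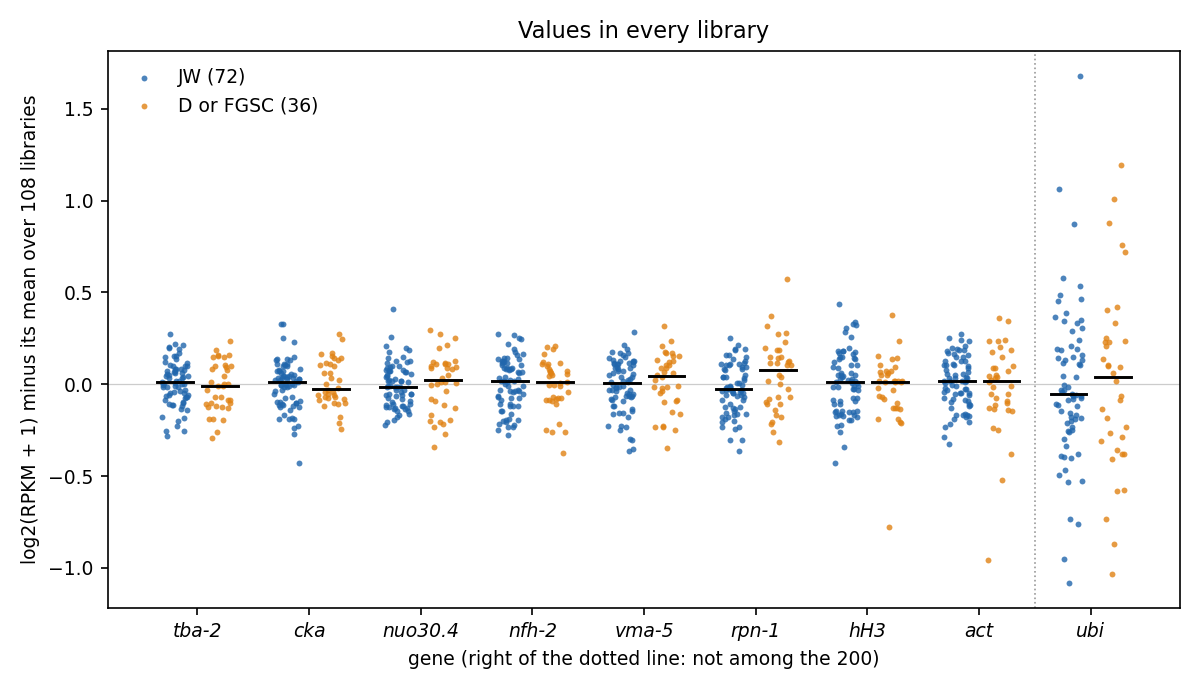
Values of 9 genes in each library, as log2(RPKM + 1) minus the gene's own mean. For each gene the 72 JW libraries (blue, left) and the 36 D or FGSC libraries (orange, right) are points and the bars are medians. The isolated low points of hH3 and act are FGSC 2489, at 3770 and 1022 RPKM, and ubi, which is not among the 200, spans 614 to 4156 RPKM.

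Casein kinase II, a kinase with many substrates, among them the clock protein FRQ in this fungus, had all 3 of its genes among the 200. cka, the gene of the catalytic subunit, had the third lowest SD, at 0.130, with 216, 294 and 366 RPKM in JW libraries and 246, 286 and 353 RPKM in D or FGSC libraries. The regulatory subunit genes had lower levels. ckb-1 had a mean of 138 ± 13.4 RPKM and ckb-2 a mean of 189 ± 20.6 RPKM (SD over all libraries). With RPKM as deposited, r was 0.31 between cka and ckb-2 and -0.02 between cka and ckb-1. The median over the 3 pairs was 0.25, and it was 0.62 with median centring, 0.54 with trimmed-mean scaling and 0.42 with quantile normalization. Under those scalings 1, 2 and 2 of the 3 genes were chosen. Other genes of signalling among the 200 were camk-2, a calcium/calmodulin-dependent kinase gene, stk-10 and stk-50, which carry serine/threonine kinase names, and the phosphatase genes pph-1, pph-3 and ppt-1. In all 9 of 35 listed kinase and phosphatase genes that met the level rule were among the 200.

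The 14-3-3 proteins bind phosphorylated partners, and both of their genes were among the 200. nfh-2 had 1494, 1829 and 2188 RPKM in JW libraries and 1396, 1820 and 2090 RPKM in D or FGSC libraries, with an SD of 0.139. nfh-1 had 831, 1259 and 1523 RPKM in JW libraries and 909, 1280 and 1453 RPKM in D or FGSC libraries, with an SD of 0.160. Under median centring and trimmed-mean scaling nfh-1 ranked 370th and 332nd, so that 1 of the pair was chosen. The correlation between them was 0.26 as deposited, 0.62 with median centring, 0.56 with trimmed-mean scaling and 0.02 with quantile normalization. Another of the 200, NCU04252, which the study annotates as a Sec1 subunit of a SNARE docking complex, was chosen for mention after its values were seen. It had 42.6, 55.03 and 72.5 RPKM in JW libraries and 33.9, 52.4 and 79.1 RPKM in D or FGSC libraries, with an SD of 0.190. cse-1, which encodes a calcium sensor and was not among the 200, varied from 123 to 407 RPKM, with an SD of 0.24, and ranked 608th.

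The vacuolar ATPase has a soluble V1 sector that hydrolyses ATP and a membrane-bound Vo sector that moves protons. Of 14 genes, all of which met the level rule, 6 were among the 200, 3 for each sector. In V1 these were vma-5 (170 ± 16.9 RPKM), vma-2 (315 ± 33.5 RPKM) and vma-1 (258 ± 31.6 RPKM), the last 2 encoding the large subunits of the catalytic head (SD over all libraries for each). In Vo they were vma-6, vph-1 and vma-3, which encodes the proteolipid that forms most of the rotor. vma-3 had 797, 1016 and 1275 RPKM in JW libraries and 504, 1038 and 1299 RPKM in D or FGSC libraries. The 504 RPKM belonged to FGSC 2489, and without it vma-3 ranked 9th in order of SD in place of 64th. The other 8 subunit genes had SDs of 0.192 to 0.268, so that vma-8, with 0.192, missed the cut narrowly. The median pairwise r of the 6 genes was 0.41 as deposited, 0.36 with median centring, 0.32 with quantile normalization and 0.23 with trimmed-mean scaling.

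The proteasome gave 13 of its 28 genes, 6 of 13 for the core, which holds the proteolytic sites, and 7 of 15 for the regulatory particle, which recognises and unfolds substrates. The lowest SD was that of rpn-1, at 0.161. It had 103, 130 and 158 RPKM in JW libraries and 106, 140 and 197 RPKM in D or FGSC libraries. Levels were alike among the chosen genes of each part, with means of 246 to 336 RPKM for the 6 core genes (pcb-3, pcb-1, pca-4, pcb-6, pcb-5 and pca-5) and 133 to 196 RPKM for the 7 regulatory genes (rpn-1, rpt-1, rpn-7, rpn-11, rpt-5, rpt-4 and rpn-10). Over all 13 core genes the means were 236 to 350 RPKM, and over all 15 regulatory genes 79.9 to 196 RPKM, the lowest being rpn-2. A further 11 proteasome genes ranked between the 200th and the 500th place, and the highest SD was 0.294, for rpt-3. These 13 genes had low spread and yet moved together more than those of any other complex with genes among the 200. Their median pairwise r was 0.62 over all libraries, 0.57 in JW and 0.74 in D or FGSC libraries. All 28 proteasome genes had 0.58. Sets with no gene among the 200 had similar values, 0.67 for 4 genes of the COP9 signalosome and 0.56 for 10 genes of ATP synthase, complexes III and IV and cytochrome c. Core genes followed regulatory genes (median r = 0.61) about as closely as they followed each other (0.63).

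Complex I, the NADH:ubiquinone oxidoreductase that feeds electrons into the respiratory chain, gave 15 of its 29 genes, the largest group of the 200 with a shared name. nuo30.4 had the lowest SD of them, at 0.135, with 371, 429 and 575 RPKM in JW libraries and 341, 441 and 531 RPKM in D or FGSC libraries. nuo20.8, nuo18.4 and nuo20.9 followed, with SDs of 0.147, 0.1495 and 0.160. Fewer of the 29 were chosen under other scalings of the libraries, 5 to 9 genes. As deposited, the 15 genes had mean levels within a 2.86-fold interval, from 331 RPKM for nuo24 to 896 RPKM for nuo12.3 and 947 RPKM for nuo9.8. nuo24 also had one of the widest ratios of the 200, 2.60, between 459 RPKM in JW202 and 176 RPKM in FGSC 4457. The other 14 complex I genes had SDs of 0.196 to 0.489, nuo19.3 being the most variable. The median pairwise r of the 15 genes was 0.30, below that of the proteasome. Of complexes III and IV, ATP synthase and cytochrome c, only 10 genes were found by symbol, and subunit genes without a symbol were not looked at. None of the 10 was among the 200, although 1 was chosen after quantile normalization. With 8.09% of all 2473 genes among the 200, a set of 10 can easily hold none. The lowest SD of the 10 was 0.23, for atp-1, and cyc-1, the cytochrome c gene, had 0.65.

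**Figure D3:**
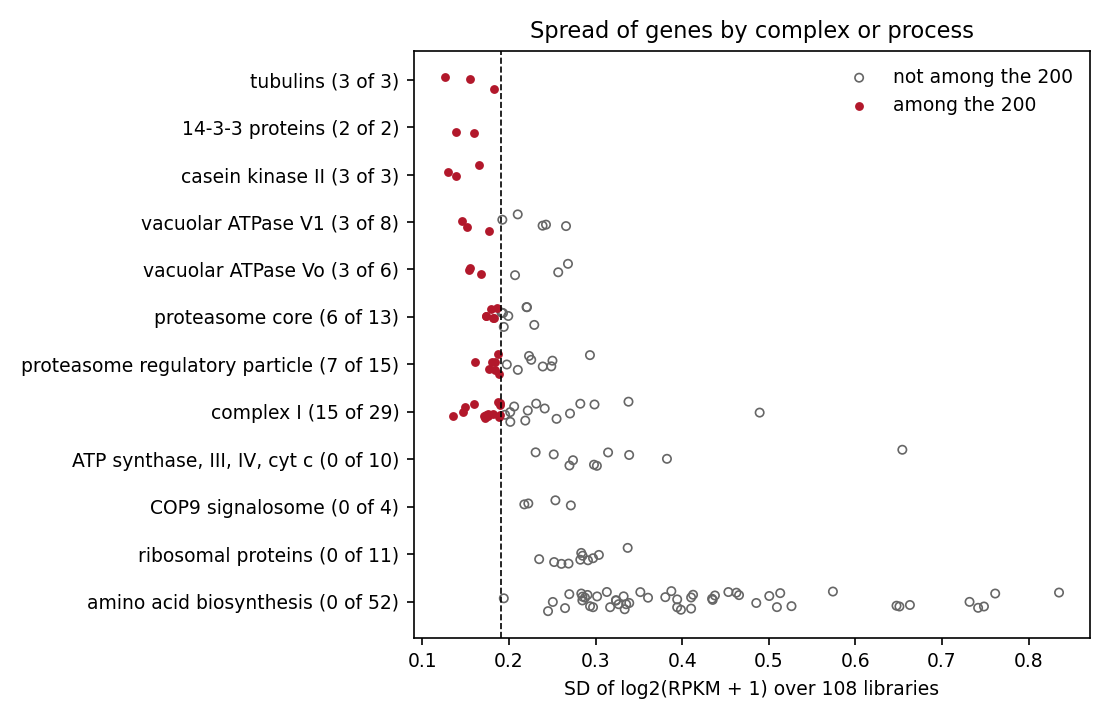
SD of log2(RPKM + 1) over all libraries (x axis) for the genes of named complexes and processes that met the level rule. Filled points are among the 200, open points are not, and the dashed line is the highest SD of the 200, 0.191; the counts stand beside each name. With RPKM as deposited, all tubulin, 14-3-3 and casein kinase II genes fall left of the line and all ribosomal protein genes right of it, whereas after quantile normalization 1, 2 and 2 of the first and 6 of 11 ribosomal protein genes were chosen.

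Correlations across these groups were weaker. The median r was 0.35 between proteasome and vacuolar ATPase genes, 0.16 between proteasome and complex I genes, and -0.02 between vacuolar ATPase and complex I genes. Over all pairs of the 200 the median r was 0.12, and 70.2% of pairs were above 0. Among the other 2273 genes the median was 0.01, with 51.7% above 0. The value for the 200 was 0.11 within JW libraries and 0.15 within D or FGSC libraries. All of these points share libraries and one scaling per library, and the values depend on it. After each library was centred on its median gene, the median over the 200 was 0.34, and that among the 15 complex I genes was 0.56 in place of 0.30. The value among the 13 proteasome genes was less affected, at 0.58 to 0.67 under the 3 other scalings.

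**Figure D4:**
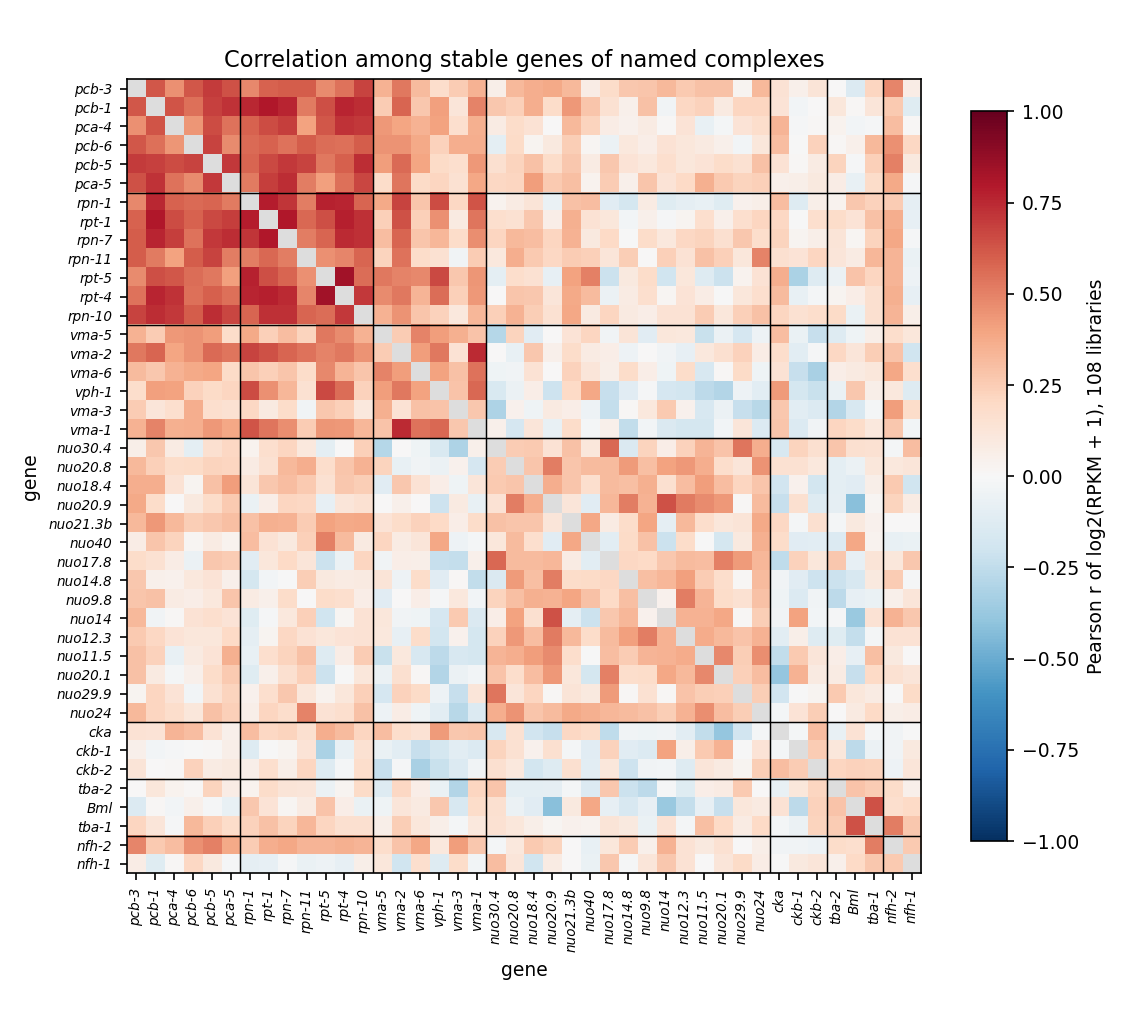
Pearson r of log2(RPKM + 1) over all libraries between 42 of the 200 genes, on both axes in the same order: proteasome core, proteasome regulatory particle, vacuolar ATPase, complex I, casein kinase II, tubulins and 14-3-3 proteins, divided by black lines. Red is positive and blue negative. The block of 13 proteasome genes is the most evenly red, with a median r of 0.62, against 0.41 for the vacuolar ATPase and 0.30 for complex I.

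Of all 2473 genes, 8.09% were among the 200 by construction. Of the 531 that carry a symbol, from which the lists were drawn, 63 were, or 11.9%. The named processes lay on both sides of these shares. In addition to the 13 of 28 proteasome, 6 of 14 vacuolar ATPase and 15 of 42 respiration genes, 8 of 14 cytoskeletal genes were among the 200. Beside them were the general corepressor genes rco-1 (154 RPKM, SD 0.179) and rcm-1 (76.1 RPKM, SD 0.185), which encode partners in one complex, as well as ccr4, for a deadenylase of messenger RNA, preg, for a cyclin of the phosphate response, and arp-4, for a nuclear actin-related protein. None of the 200 came from the lists of several other core processes. These were the 52 genes of amino acid biosynthesis (median SD 0.39), 35 of glycolysis and the citrate cycle (0.32), 11 ribosomal proteins (0.28), 8 of purine and pyrimidine synthesis (0.34), 10 small GTPases and their regulators (0.25), 8 of the ubiquitin system (0.25) and 5 chaperones (0.33). A further 6 lists with no more than 3 genes each, such as translation factors and aminoacyl-tRNA synthetases, gave none either. Other lists as short did, with 2 of 3 of the study's own genes and 1 of 1 hyphal marker, act. The 10 conidiation genes, none of them chosen, had a median SD of 1.52. At a share of 8.09% or 11.9% a list of 11 or fewer genes can easily hold none, so nothing is read from such zeros. Under median centring, quantile normalization and trimmed-mean scaling the zeros held for amino acid biosynthesis and for glycolysis and the citrate cycle. They also held for purine and pyrimidine synthesis, chaperones and conidiation. They did not hold for ribosomal proteins, of which 6 of 11 were chosen after quantile normalization, nor for the nuclear pore and transport list (its 1 gene, after quantile normalization), the ubiquitin system (1 to 3 genes) and the small GTPases (1 or 2 genes) under the other scalings. The lists hold only genes that carry a symbol, and the 11 ribosomal protein genes are a small part of that family.

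A symbol was attached to 63 of the 200 genes, or 31.5%, against 20.6% of the other genes. The remaining 137 had no symbol in the gene table. They include 6 of the 10 genes of lowest SD. NCU07874 had 202, 245 and 299 RPKM in JW libraries and 190, 243 and 297 RPKM in D or FGSC libraries, with an SD equal to that of tba-2 to 3 decimals. NCU09808 had a mean of 117.1 RPKM, NCU06684 of 201 RPKM, NCU09803 of 206 RPKM, NCU01523 of 386 RPKM and NCU03126 of 512 RPKM, with SDs between 0.133 and 0.139. Of the most abundant of the 200 genes, NCU03826 (2127 RPKM) and NCU02289 (1884 RPKM) had no symbol either. NCU02289 was lowest in FGSC 2489, at 1201 RPKM, and at 1441 RPKM or more elsewhere. NCU00422 had the widest ratio of all 200, 2.66, between 704 RPKM in JW5 and 265 RPKM in FGSC 1693, followed by nuo24 and vma-3 (2.58).

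By their order in the NC12 gene table, the 200 genes were not concentrated at one place. They made up 4.72% of the level-rule genes on linkage group IV and between 8.05% and 9.84% on the other 6. A direct neighbour that was also among the 200 was found for 10 of 193 placed genes (5.18%) and for 124 of 2156 other genes (5.75%). The 5 neighbouring pairs included nuo20.8 with NCU02473 (r = 0.31) and rpt-1 with NCU02839 (r = 0.36).

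Whether the choice carried over to libraries that it had not used was examined by repeating it in one strain series and reading the result in the other. The 200 genes of lowest SD in the 36 D or FGSC libraries had a median percentile of 8.53 by SD among the 2474 genes that met the level rule in the 72 JW libraries, and 176 of the 197 measured were in the lowest 25%. In the reverse direction the median percentile was 8.82, with 173 of 200 in the lowest 25% and 5 above the median of all genes. The separate choices shared 95 genes, which is 47.5% of each. Of these 95, all were among the 200 described here, which were chosen on both series together. A gene of low SD in each series has a low SD over all libraries unless its means differ, so nothing is read from this. The choice of the 200 described here used every library, so the percentiles above hold for the repeated choices and not for them. With median centring the separate choices shared 97 genes, 63 of them among the 200, and with quantile normalization 102, 49 of them among the 200. The 95 shared as deposited held 7 of the 15 complex I genes, 4 of the 6 vacuolar ATPase genes, the pair of 14-3-3 genes, 2 of 3 tubulin genes and 2 of 3 casein kinase II genes, but 1 of the 13 proteasome genes, pca-4.

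JW libraries were compared with D or FGSC libraries gene by gene with limma on log2(RPKM + 1), since the strain names are the only grouping that the labels give. At a Benjamini-Hochberg adjusted p of 0.05, 2.24% of 7985 genes tested were called, and 4 of the 200 genes, or 2.0%. A low SD over all libraries limits the difference that a gene can have between the series, so nothing is read from this count. NCU02438 was higher in JW libraries, at 283, 420 and 518 RPKM, against 308, 374 and 497 RPKM in D or FGSC libraries, a log2 difference of 0.13 ± 0.04 (SE, limma adjusted p = 0.040). NCU03366 was lower in JW libraries, at 99.4, 156 and 218 RPKM, against 141, 171 and 219 RPKM in D or FGSC libraries (log2 difference -0.13 ± 0.04, limma adjusted p = 0.029). NCU03837 (limma adjusted p = 0.036) and NCU03906 (limma adjusted p = 0.044) were also lower in JW libraries, each by a log2 difference of -0.13. The ranges of the series overlapped for all 4 genes, and with the library total as a covariate none of the 4 was called. No difference among the 200 was larger than 0.13 on the log2 scale in either direction, and the next most positive were NCU05999 (0.11, limma adjusted p = 0.069) and nuo14.8 (0.10, limma adjusted p = 0.11).

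**Figure D5:**
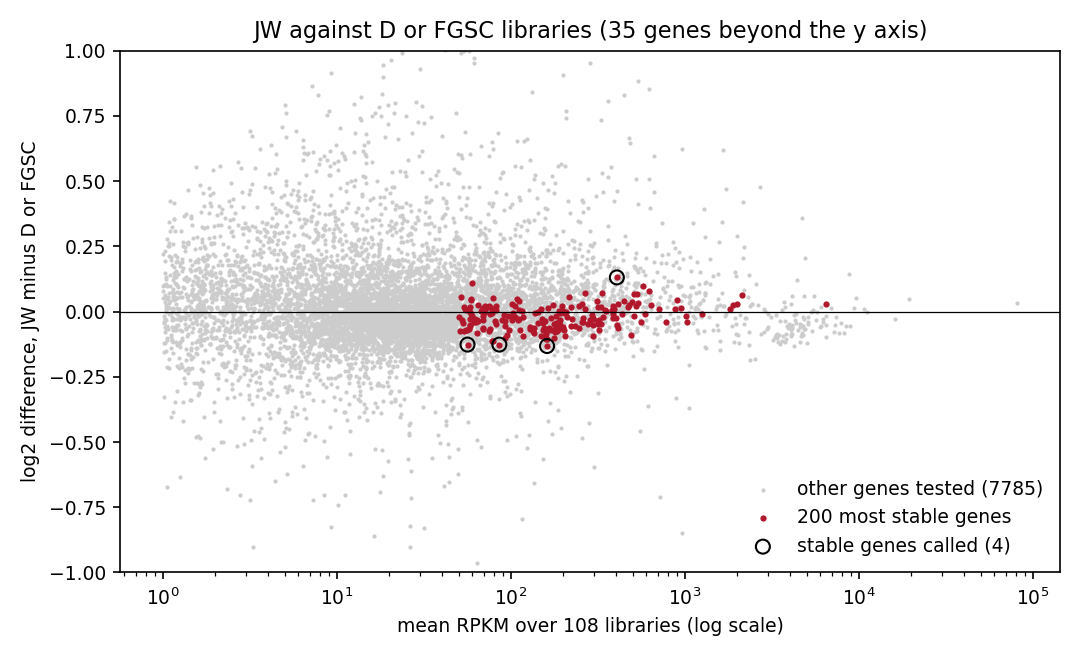
Difference in mean log2(RPKM + 1), JW minus D or FGSC libraries (y axis), against mean RPKM (x axis, log scale) for the 7985 genes tested. Red points are the 200 genes and circles mark the 4 of them called by limma, 1 higher and 3 lower in JW; 35 genes lie beyond the y axis. All red points lie between -0.13 and 0.13.

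The series also differed in sequencing depth, and depth was related to RPKM for many genes. With the log2 of the library total as the only term, 25.9% of the 7985 genes had a slope at an adjusted p of 0.05 in limma. Of these slopes 923 were positive and 1146 negative. Among the 200 genes 41 (20.5%) had a slope, of which 6 were positive and 35 negative. A low SD over all libraries limits the slope that a gene can have, so nothing is read from these counts. The most negative slopes were those of NCU04448, NCU09709 and NCU02207, which fell by 0.15, 0.14 and 0.12 on the log2 scale for each doubling of the total. The most positive were those of NCU02438 and nuo14, which rose by 0.12 and 0.09. NCU02289 had the third most positive correlation with the log2 total, 0.29, which was 0.21 without FGSC 2489. FGSC 2489, with 5132423 reads, was the highest library for the first 3 genes, at 264, 275 and 330 RPKM. Without it the correlation of NCU04448 with the log2 total was -0.49 in place of -0.53. Within JW libraries alone 10.7% of all genes and 15 of the 200 had a slope, 8 of them positive, and within D or FGSC libraries 9.50% of all genes and 16 of the 200, none positive. Over all genes these slopes were positive for 218 and negative for 635 within JW libraries. Within D or FGSC libraries they were positive for 529 and negative for 225. The low SD of the 200 limits their slopes here too. The part of depth in the differences between the series was not tested apart from the covariate.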

How the data were processed

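The authors deposited RPKM values per gene and strain; per the labels reads came from polyadenylated RNA and were mapped with Bowtie (0.12.2 in the submitters' processing notes), while the release of the gene models was not given in the sources used here. Every one of the 112 columns matched a sample (0 were left out), and 4 pairs of columns were averaged. The members and the gene lists were chosen with earlier results of these data known, and the grouping by complex, and the removal of symbols that matched a list's pattern by spelling only, after values were seen. Symbols came from the RefSeq NC12 gene table, which held 193 of the 200 and 8914 of the 9733 locus numbers; the files and this table give no product names. hex-1 and con-8 were not analysed here.

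Whole reads and coding lengths were recovered from the RPKM steps (tolerance 0.001 reads) and gave library totals, counting SDs and a voom alternative. Spread was the SD of log2(RPKM + 1). limma 3.58.1 (R 4.3.3) with a trend on mean level and Benjamini-Hochberg adjustment at 0.05 was run on every gene averaging 1 RPKM or more, two-sided, and checked on simulated data; correlations used Python 3.11.15. With 1 library per strain, p-values measure the spread between these libraries. Alternatives were other pseudocounts (0.1, 5), minimum levels, scalings (median centring, quantile normalization, trimmed mean of M-values), measures of spread and subsets of libraries.

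The genes named were the 10 of lowest SD, 3 on each side of the cut, the 10 of highest mean and up to 4 of lowest SD per list. All usual reference genes were named, and those of the study's own genes that a symbol matched and that met the level rule. Of the study's genes, arg-15 and nik-2 had means of 13.7 and 12.5 RPKM, and no symbol matched pik1, sec15 or sec22. Also named were the 3 with the largest difference between series or correlation with depth in each direction, and the 3 of widest ratio. Other complex subunits, genes at the extremes in FGSC 2489 and NCU04252 were named after their values were seen.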

Additional observations from a re-analysis of the deposited data

How the results depend on the processing

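Of the 200 genes, 112 to 196 were chosen again under 18 other settings, with 193 when every column was its own library, 196 after subtraction of counting variance, 179 without FGSC 2489 and 168 without the 5 most deviating libraries (a setting chosen after seeing the data). The share chosen again fell to 56% with median centring, 56% with quantile normalization, 61% with trimmed-mean factors, 65.5% with a minimum of 20 RPKM, 59% with no minimum and 65.5% in D or FGSC libraries alone. The 3 scalings kept 86 of the 200 in common, all 10 of lowest SD among them. Complex I genes chosen numbered 15 as deposited, 5 with median centring, 9 with quantile normalization and 5 with trimmed-mean factors, while proteasome genes numbered 13, 11, 16 and 13. The median SD of the 200 was 0.197 with median centring and the median pairwise r 0.34. The share of all genes called between JW and D or FGSC was 4.16% with quantile normalization, 0.388% with the library total as covariate, 3.62% with every column its own library and 1.43% without the 5 libraries, against 2.24% as reported. Of the 200, the number called in the same 4 settings was 9, 0, 6 and 2, and it was 2 with median centring and 1 with voom, against 4. The share of all genes called was 3.29% with median centring and 2.10% with voom. With the covariate, 14 of the 200 and 934 of all 7985 genes had an unadjusted p under 0.05 in limma. With quantile normalization 130 of the calls were higher and 202 lower in JW, against 93 and 86. Genes of the 200 with a slope on depth numbered 15 in JW, 16 in D or FGSC, 25 with median centring and 49 without the 5 libraries, against 41. The shares of all genes in these settings were 10.7%, 9.50%, 26.2% and 24.5%, against 25.9%. The cause of these shifts was not tested. No paired analysis was possible because the labels give 1 library per strain and no numbers shared between groups.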
